A study of Mus musculus with 2 samples.

Results

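Cells in a surface-tag gate for haematopoietic stem cells (HSCs) that carried transcripts of the cell cycle were described. The CITE-seq data used give the RNA and the antibody-tagged surface proteins of the same single cells. HSC-gate cells were those with a low CD135 tag, a low CD48 tag and a high CD150 tag, and 2478 of 7967 kept cells fell in this gate. The cells described here were the 399 gate cells selected on at least 2 UMIs (unique molecules counted) of Mki67 and Top2a together, called cycling HSC-gate cells below. They are set beside the 1813 gate cells with 0 UMIs of both genes, called 0-UMI cells. The other 266 gate cells had exactly 1 UMI.

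The cells were Lin-Sca1+ckit+ (LSK) bone marrow cells of mice. From an age of about 6 months the animals had been given Deferoxamine, an iron chelator, at 50 mg/kg, or the vehicle HBSS. Doses were given daily in courses of 7 days that were repeated every 4 weeks over 13 months. Each condition was 1 pool of cells marked by its own hashtag antibody (hashtag 1 for the HBSS control, hashtag 2 for the chelator), and both were loaded together to give 1 RNA and 1 antibody-tag library. Neither the strain and genotype nor the number of mice behind a pool could be read from the labels. With 1 pool per condition there is no replicate: no difference was tested, and every 95% interval below covers counting error alone. The control pool had 3969 kept cells with a median of 13705 gene UMIs, the chelator pool 3998 with a median of 14455.5, and no barcode occurred in both.

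Most HSCs of the adult marrow are quiescent, and the few that divide pass through licensing of replication origins, DNA synthesis and mitosis. Mki67 encodes a protein that coats mitotic chromosomes and is a standard mark of proliferating cells, and Top2a encodes topoisomerase II alpha, which untangles replicated DNA. Both transcripts build up late in the cycle, so cells in early stages can hold few of them. CD150 and CD48 are SLAM-family surface proteins used to separate HSCs (CD150+CD48-) from multipotent progenitors (MPPs).

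Cycling cells made up 16.3% of the control gate (190 of 1166 cells, exact interval 14.2 to 18.5) and 15.9% of the chelator gate (209 of 1312, 14.0 to 18.0). The chelator share differed by -0.365 percentage points, with an interval of -3.33 to 2.58, so a difference beyond counting error was not detectable. The number of mice per sex is unknown, but cells could be split by their transcripts. Among Xist-bearing gate cells the cycling share was 20.3% in the control and 17.3% in the chelator pool, and among Y-bearing cells (with Y-linked transcripts) it was 16.2% and 17.0%. After each cell was thinned to 5000 gene UMIs the shares were 11.7% and 9.36%, and the difference was -2.33 points (-4.87 to 0.185).

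Mki67, on chromosome 7 (135689784 to 135716450, GRCm38.p6), had 2650 UMIs over the control and 2543 over the chelator cycling cells. Top2a, on chromosome 11 (98992947 to 99024199), had 2442 and 2363. These values chose the cells and are a description. Both genes were seen in 74.2% of the 399 cells, while 30 cells held Mki67 alone and 73 held Top2a alone. The cells spanned a wide range, from exactly 2 UMIs in 29 control and 40 chelator cells to 170 and 158 UMIs in the richest cell of each pool. At least 20 UMIs were counted in 90 control and 84 chelator cells. Just outside the threshold lay 116 control and 150 chelator cells with 1 UMI.

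Free RNA in the droplets could place single UMIs in cells that do not express a gene. Dntt, a lymphoid gene that HSCs should lack, had 10764 UMIs in all kept control and 12508 in all kept chelator cells, against 33253 and 37250 of Mki67 plus Top2a. At least 2 Dntt UMIs were found in 0.257% of control and 0.610% of chelator HSC-gate cells (median depths 12698 and 13304 gene UMIs). In the MPP4 gate, which holds lymphoid-primed progenitors, the shares were 37.9% and 43.3%, at median depths of 14570 and 16495.5. A background share for Mki67 and Top2a themselves was not measured.

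Cycling cells were large libraries. Their median was 22736.5 gene UMIs in the control and 22739 in the chelator pool, against 11856.5 and 12359 in 0-UMI cells. They had a median of 5692.5 and 5576 detected genes, against 3895.5 and 3956. More than 2 times the median depth of their pool was reached by 26.1% of cycling and 0.883% of 0-UMI cells. Xist and Y-linked transcripts occurred together in 3.26% of cycling cells and 0.662% of 0-UMI cells, a sign of droplets with 2 cells. A cell before division and a droplet with 2 cells both hold more RNA, and the part of such droplets in the results was not tested. The counts below are therefore also given, where they move, without cells over 2 times the median depth or with transcripts of both sexes.

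**Figure D1:**
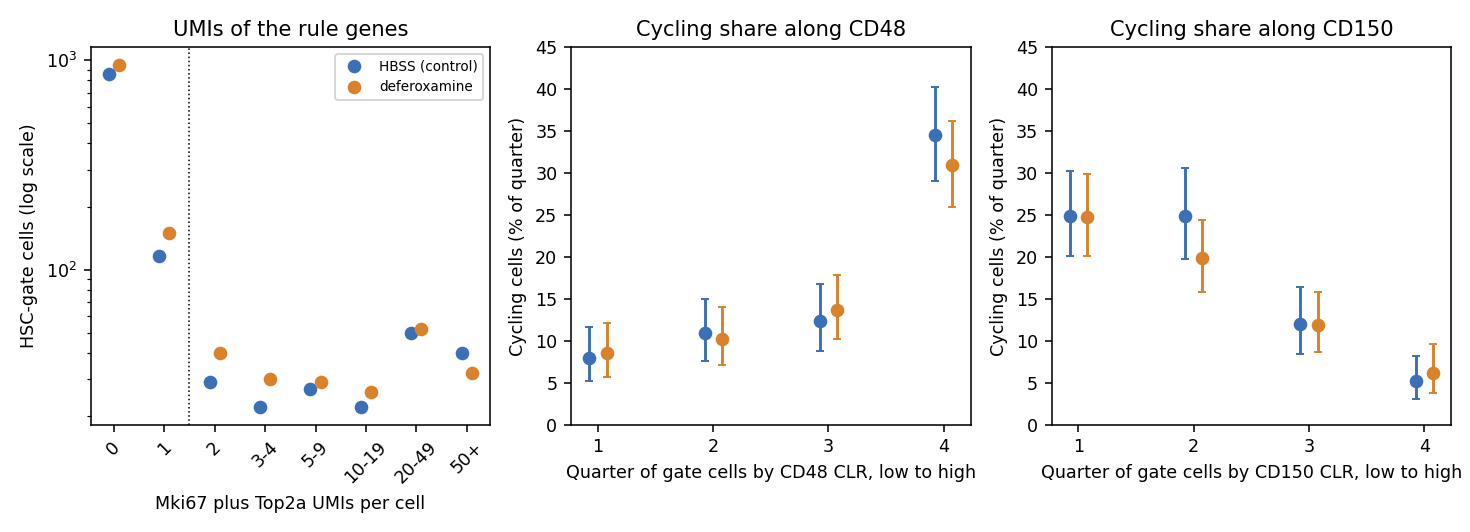
Left, HSC-gate cells (log scale) by the Mki67 plus Top2a UMIs they held, with the dotted line at the threshold for cycling cells. Middle and right, the cycling share within 4 equal groups of the gate by CD48 and CD150 tag, with exact 95% intervals; the share is highest in the top CD48 group (34.5% and 30.9%) and lowest in the top CD150 group (5.17% and 6.19%).

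Cycling cells were unevenly spread within the gate. In 4 equal groups of the gate cells by CD48 tag, from low to high, they made up 7.95%, 10.9%, 12.4% and 34.5% of the control cells and 8.49%, 10.2%, 13.7% and 30.9% of the chelator cells. Along CD150 the order was the opposite, with 24.9%, 24.9%, 12% and 5.17% in the control and 24.8%, 19.8%, 11.9% and 6.19% in the chelator pool. For CD48 the intervals of the top group did not meet those of the other 3, and for CD150 the top group lay below the lowest group in both pools. Along CD135 the shares ran only from 14.0% to 19.7% in the control and from 14.1% to 18.2% in the chelator pool. Within 0.25 of any gate edge lay 26.8% of cycling and 15.3% of 0-UMI cells. By edge these shares were 8.02% and 1.21% for CD48, 10.0% and 5.35% for CD150, and 10.8% and 9.76% for CD135.

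The RNA of cycling cells was set against that of 0-UMI cells within each pool. UMIs were summed over cells and scaled to counts per 1000000 gene UMIs (CPM), and a gene was called when it was at least 2-fold different in the same direction in both pools. Because Mki67 and Top2a chose the cells, this contrast is a description. Of 11394 genes with at least 50 UMIs in each pool, 629 were higher (5.52%) and 502 were lower (4.41%). The median gene lay at a log2 ratio of 0.02 in both pools.

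Genes of mitosis stood highest. Of 69 genes of G2 and mitosis, 66 were at least 2-fold higher and none lower, with a median log2 ratio of 5.22 in the control and 4.90 in the chelator pool. Ube2c, the ubiquitin-conjugating enzyme that works with the anaphase-promoting complex, was at 1.25 CPM in control 0-UMI cells and 341 CPM in control cycling cells, and at 1.16 and 306 CPM in the chelator pool. This was a log2 ratio of 8.10 (7.32 to 9.01) and 8.05 (7.30 to 8.92). Birc5, the survivin subunit of the chromosomal passenger complex, went from 1.53 to 250 CPM and from 0.991 to 234 CPM. Aurkb, the kinase of the same complex, had log2 ratios of 7.54 and 7.22, and Ccna2, the cyclin of S phase and G2, 7.23 and 7.45. Hmgb2, an abundant chromatin protein, was already seen in 69.8% of control 0-UMI cells, and its level went from 126 to 1607 CPM in the control and from 143 to 1461 CPM in the chelator pool. Pbk, a mitotic kinase, and Cdca3, a trigger of mitotic entry, were among the 12 highest as well, with log2 ratios of 7.42 and 7.51, and of 7.27 and 7.09.

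Some of the highest genes lay outside the cell-cycle lists used here. Kif18b, a kinesin of the mitotic spindle, had 2 and 1 UMIs in the 0-UMI cells and 190 and 178 in the cycling cells, so its ratio is loosely bounded (log2 7.80, 5.92 to 10.85, and 8.77, 6.27 to 14.08). Neil3, a DNA glycosylase, was at log2 9.28 and 6.98. Mxd3, a partner of Max, was at 7.13 and 7.17, while Myc itself lay at -0.16 and -0.13. The centrosome kinase gene Nek2 was listed at 0 in chelator 0-UMI cells, and against a floor of 3 UMIs over that group it was at least 97.9-fold higher there. Such genes had their UMIs in a minority of the cells: Fam83d, for example, was seen in 26.8% of control and 19.1% of chelator cycling cells.

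Genes of DNA replication were higher by less. All but 1 of the 24 counted licensing and origin firing genes passed the fold, with a median log2 ratio of 2.22 and 1.99. Mcm6 and Mcm3, subunits of the replicative helicase, were at log2 1.71 and 1.66, and at 1.69 and 1.64. Mcm10, which helps to start the helicase, and Clspn, an adaptor of the replication checkpoint, were at 5.22 and 5.23, and at 4.37 and 4.11. Of 30 genes of DNA synthesis 28 were higher, among them Tk1 (5.74 and 5.29) and Rrm2 (5.52 and 5.17), which make deoxynucleotides, and the maintenance methyltransferase gene Dnmt1 (2.22 and 1.92). Of 21 genes of homologous recombination and Fanconi repair 20 were higher, and Fancd2 led them at 5.75 and 4.94.

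Of 53 counted replication-dependent histone genes 49 were higher, with a median log2 ratio of 3.75 and 3.57. Hist1h2ae went from 83.3 to 1020 CPM in the control and from 76.0 to 868 CPM in the chelator pool. Histone genes are near-identical copies of each other, so single values are uncertain, and most of their mRNA lacks the poly(A) tail on which the library depends.

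The promoters of the mitotic, licensing and DNA synthesis genes were searched for short motifs that cell-cycle factors are known to use; no histone promoter was searched. Promoter sequence came from RefSeq (GRCm38.p6). The 250 bases before each start were searched on both strands for CCAAT (the CCAAT box), TTTGAA (the cell-cycle homology region, CHR, of late cell-cycle genes) and GCGGGAA or GCGCGAA (E2F sites), none of which contains another. Shown as examples are Ube2c and Hmgb2 of the mitotic group, Mcm6 of licensing and Procr of the stem cell genes that were lower. Each is given over the 150 bases before its start, 5′ to 3′ on the gene's strand, with matches in capitals. The regions are chr2:164769779-164769928 (+) for Ube2c, chr8:57511693-57511842 (+) for Hmgb2, chr1:128359706-128359855 (-) for Mcm6 and chr2:155751067-155751216 (+) for Procr. The Procr window runs past 155751125, where the annotated gene begins, because the start used for it lies further in.
Ube2c: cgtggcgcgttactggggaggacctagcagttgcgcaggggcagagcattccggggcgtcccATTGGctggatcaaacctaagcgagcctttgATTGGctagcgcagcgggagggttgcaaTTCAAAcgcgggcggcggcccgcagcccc
Hmgb2: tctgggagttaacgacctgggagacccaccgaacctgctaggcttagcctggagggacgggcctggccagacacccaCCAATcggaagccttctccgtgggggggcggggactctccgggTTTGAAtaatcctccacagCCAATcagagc
Mcm6: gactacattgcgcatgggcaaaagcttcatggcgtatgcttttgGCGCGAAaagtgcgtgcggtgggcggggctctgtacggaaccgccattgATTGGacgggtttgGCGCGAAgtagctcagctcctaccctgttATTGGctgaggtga
Procr: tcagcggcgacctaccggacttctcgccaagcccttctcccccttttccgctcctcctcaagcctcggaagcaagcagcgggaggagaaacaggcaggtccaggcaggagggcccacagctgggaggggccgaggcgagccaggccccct
In Ube2c the CHR, here on the reverse strand as TTCAAA, begins 29 bases before the start and a reversed CCAAT box (ATTGG) 57 bases before it. In Hmgb2 the CHR begins 30 bases and a CCAAT box 73 bases before the start. Mcm6 holds GCGCGAA at 106 and 43 bases before its start, reversed CCAAT boxes at 57 and 14 bases before it, and no CHR. None of the 3 motifs occurs in the window shown for Procr.

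A CHR was found in 37.7% of 61 promoters of 56 matched G2 and mitosis genes, against 16.0% of all 32851 promoters. A CCAAT box was found in 77.0% of them, against 33.8%, and both together in 34.4%, against 5.55%. In the promoters of all counted genes the shares were 10.7% (CHR), 35.4% (CCAAT box) and 4.02% (both). An E2F motif was in 3.28% of the mitotic promoters, against 5.0% of all promoters and 9.39% of those of counted genes. It was in 52.2% of the 23 promoters of 20 matched licensing genes and in 27.6% of the 29 promoters of DNA synthesis genes. The CCAAT box was not particular to the mitotic genes: it was in 69.6% of the licensing and 41.4% of the DNA synthesis promoters. A CHR was in 17.4% and 6.90% of these. Of the genes higher in cycling cells 462 of 629 matched, and 19.3% of their promoters held an E2F motif and 18.4% a CHR. Promoters of the genes lower in cycling cells held them in 4.76% and 11.1%. Over the promoters of all counted genes, from which both were drawn, the shares were 9.39% and 10.7%. The 32 promoters of 25 matched stem cell identity genes held an E2F motif in 9.38% and a CHR in 12.5%. A CCAAT box was in 40.6% of these, against 35.4% for all counted genes. A match is a description of these letters, not a bound site.

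**Figure D2:**
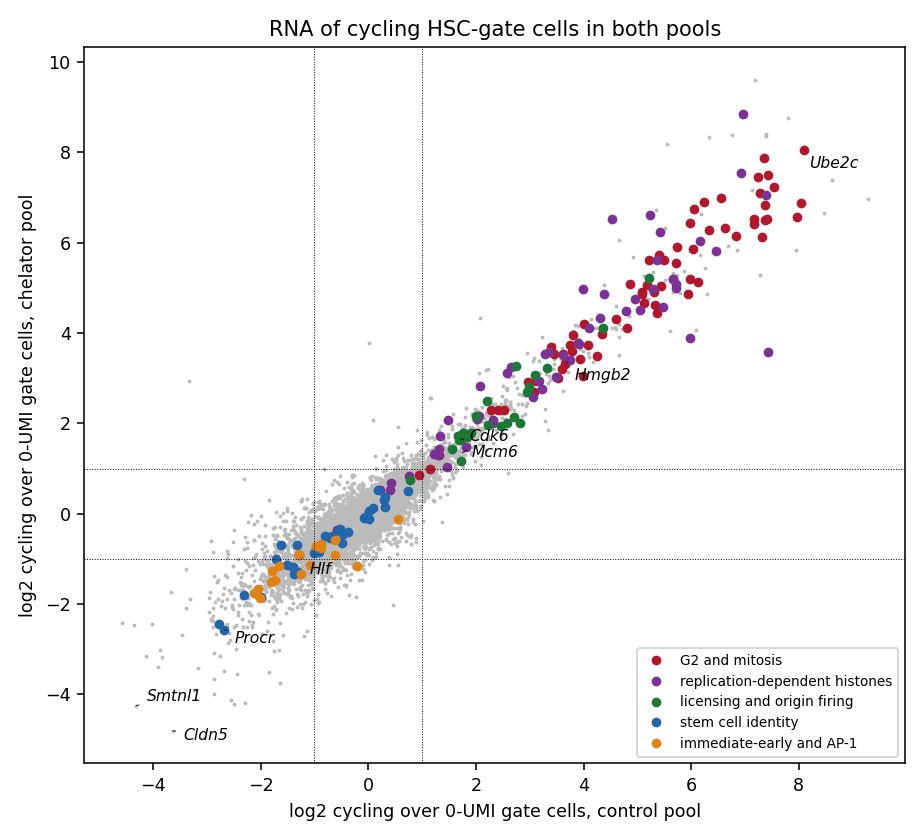
Each point is a gene, with the log2 ratio of cycling over 0-UMI HSC-gate cells in the control pool (horizontal) and in the chelator pool (vertical); dotted lines mark 2-fold. Genes of G2 and mitosis reach 8.10 and 8.05 (Ube2c), licensing genes have a median of 2.22 and 1.99, and stem cell genes one of -0.76 and -0.60.

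The regulators of the cycle differed in direction. Of 16 counted genes for D cyclins, CDKs and E2F factors 8 were higher and none lower. The repressor E2f8 and the mitotic activator Foxm1 had log2 ratios of 7.27 and 5.28, and of 5.14 and 5.11. Cdk6, the kinase that marks exit of HSCs from quiescence, went from 102 to 326 CPM in the control and from 130 to 322 CPM in the chelator pool (log2 1.68 and 1.31). Ccnd1 and Ccnd2, its cyclin partners of G1, were in contrast below the 0-UMI cells, at -0.79 and -0.39 and at -0.73 and -0.64, short of the 2-fold line. Ccnd3 lay at 0.20 and 0.17.

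Among 19 counted CDK inhibitors, pocket proteins and antiproliferative genes 1 was higher and 2 were lower. The higher one was Rbl1, the E2F-regulated pocket protein p107 (1.85 and 1.75). The lower ones were Txnip, a brake on glucose uptake (770 to 241 CPM and 703 to 252 CPM), and Ypel3, an antiproliferative gene (241 to 113 CPM and 221 to 99.5 CPM). Cdkn1c, the p57 inhibitor of quiescent HSCs, lay at log2 -1.27 in the control but -0.63 in the chelator pool, and its intervals (-1.51 to -1.04 and -0.82 to -0.43) did not meet. Cdkn1a, the p21 inhibitor, lay at -0.21 and -0.12.

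Stem cell genes were lower in part. Of 34 counted genes of stem cell identity 9 were at least 2-fold lower and none higher, with a median of -0.76 and -0.60. Procr, the endothelial protein C receptor that marks the most potent HSCs, went from 246 to 38.4 CPM in the control and from 212 to 35.8 CPM in the chelator pool. It was seen in 85.9% and 81.5% of 0-UMI cells and in 32.6% and 32.5% of cycling cells. Sult1a1, a sulfotransferase typical of HSCs, went from 308 to 45.1 CPM and from 352 to 65.1 CPM. Hlf, a transcription factor that keeps HSCs quiescent, was at log2 -1.29 and -0.92, and Mecom, another HSC transcription factor, at -0.37 and -0.40. UMIs of Hlf were still found in 82.1% of control and 89.5% of chelator cycling cells, and of Mecom in 93.2% and 92.8%.

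The 12 lowest genes were ranked without regard to the lists. Cldn5, a tight junction protein also used as an HSC marker, had 377 UMIs in control 0-UMI cells and 13 in control cycling cells, and 479 and 7 in the chelator pool. Its log2 ratio was -3.63 (-4.55 to -2.84) and -4.80 (-6.13 to -3.75). Smtnl1, a smoothelin-like protein, had 186 UMIs in the 0-UMI cells of each pool and 4 in the cycling cells of each. Xdh, the xanthine dehydrogenase, lay at -4.12 and -3.16, Camk2n1, a CaMKII inhibitor, at -3.83 and -3.17, and Gpr183, an oxysterol receptor, at -2.86 and -3.67. Ramp2, a receptor activity-modifying protein, went from 105 to 14.8 CPM and from 111 to 17.6 CPM. Gfi1, a repressor that restrains HSC proliferation, lay at -2.67 and -3.47, on only 11 and 6 UMIs in cycling cells.

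Of 18 counted immediate-early genes 9 were at least 2-fold lower and none higher, with a median of -1.27 and -1.14. Egr1, which holds HSCs in quiescence, went from 647 to 156 CPM in the control and from 878 to 279 CPM in the chelator pool. Fos, the AP-1 subunit, went from 600 to 171 CPM and from 960 to 335 CPM. Zfp36, which destabilises mRNA, was at log2 -2.13 and -1.76, and Junb at -2.0 and -1.86. These transcripts can also respond to cell handling, whose part was not tested.

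Of 25 counted genes that rise with HSC ageing 8 were lower and 1 higher, with a median of -0.81 and -0.49. Nupr1 and Sult1a1 stand in both this and the stem cell list. Nupr1, a stress-response regulator, was at -1.72 and -1.0, and Sbspon at -2.49 and -1.67. Type I interferon genes had 3 of 15 lower, among them Ifit1 (-2.52 and -2.06) and Rtp4 (-1.83 and -1.15), and none higher. Of 15 counted MHC and antigen presentation genes only 1 was lower and none higher. In both pools 5 of them lay above 0 and 9 below 0. Cd74, the invariant chain of MHC class II, was at -2.68 and -1.65.

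Growth and energy genes differed by small steps. Over all 11394 genes, 4986 lay above 0 and 4579 below 0 in both pools. None of the 30 ribosome biogenesis genes passed 2-fold, and 25 lay above 0 in both pools (median 0.31 and 0.28). Of 21 genes of purine, pyrimidine and one-carbon synthesis 5 passed, with Mthfd2, the mitochondrial folate enzyme, at 2.62 and 3.04 and Cad, which begins pyrimidine synthesis, at 1.34 and 1.26. None of the 78 counted nuclear-encoded oxidative phosphorylation genes passed in both pools, though 73 lay above 0 (median 0.46 and 0.40). Cytosolic ribosomal protein genes lay below 0 in 71 of 79, with a median of -0.28 and -0.26, and mitochondrially encoded transcripts in 12 of 13 (median -0.47 and -0.38). In CPM a share lost by one group is gained by others, so these small shifts are relative to the whole.

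Iron genes were of interest because of the treatment. Of 18 counted genes of iron uptake, storage and export only 1 passed the fold: Steap3, the endosomal ferrireductase, at 2.55 and 2.10. Tfrc, the transferrin receptor, went from 7.95 to 10.8 CPM in the control (log2 0.44, -0.11 to 0.97) and from 5.29 to 12.3 CPM in the chelator pool (1.22, 0.69 to 1.75). Fth1, the ferritin heavy chain, lay at -0.39 and -0.25. Slc40a1, the iron exporter ferroportin, had 5 and 17 UMIs in all cycling cells. Of 23 genes of iron-sulfur cluster assembly none passed, with a median of 0.30 and 0.22.

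Markers of other cell types were checked in the gate. Of 10 T, NK and innate lymphoid markers 3 had UMIs in the cycling cells of each pool, and Cd3e, Cd3d and Cd3g, the T-cell receptor complex, were among the 7 at 0. Of 11 lymphoid markers 8 had UMIs, in 61 of 190 control and 75 of 209 chelator cells, with Il7r, Rag1 and Ly6d at 0. Among 0-UMI cells, which are shallower, 226 of 860 and 278 of 953 held lymphoid markers. Flt3, the CD135 gene, was higher among the 2 counted (1.49 and 1.25). Of 7 B-cell markers 4 had UMIs in the control and 5 in the chelator pool, in 105 and 111 cells. Ms4a1 and Pax5 were at 0. Among 0-UMI cells 318 of 860 and 335 of 953 held B-cell markers. The summed B-cell level went from 39.5 to 34.3 CPM in the control and from 37.1 to 33.2 CPM in the chelator pool. Of 2 counted endothelial and stromal markers 1 was lower. Nkg7, listed with T and NK genes but also expressed in progenitors, was higher (2.56 and 2.27), and Klrb1c was lower (-2.57 and -2.81). Megakaryocyte markers were higher for 5 of 12 counted, with a median of 1.23 and 0.86. Pf4, platelet factor 4, went from 87.0 to 571 CPM in the control and from 112 to 551 CPM in the chelator pool, and was seen in 46.8% and 50.2% of cycling cells against 14.5% and 20.6% of 0-UMI cells. Gp1bb, a platelet adhesion receptor subunit, was at 2.40 and 1.96. Of 10 counted erythroid markers 5 were higher, with a median of 0.68 and 0.96 and the transcription factor Gata1 at 2.63 and 2.47. Of 5 counted granulocyte-monocyte markers none passed the fold in both pools, with a median of -0.60 and -0.28. Their summed level went from 1156 to 500 CPM in the control and from 1109 to 752 CPM in the chelator pool. Of 2 counted mast and basophil markers 1 was lower. The summed megakaryocyte list ran per cell from 0.493 to 139 UMIs per 10000 in control and from 1.35 to 129 in chelator cycling cells. For the erythroid list the range was 2.28 to 49.3 and 2.62 to 101. The part of such lineage-primed cells in the other results was not tested.

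**Figure D3:**
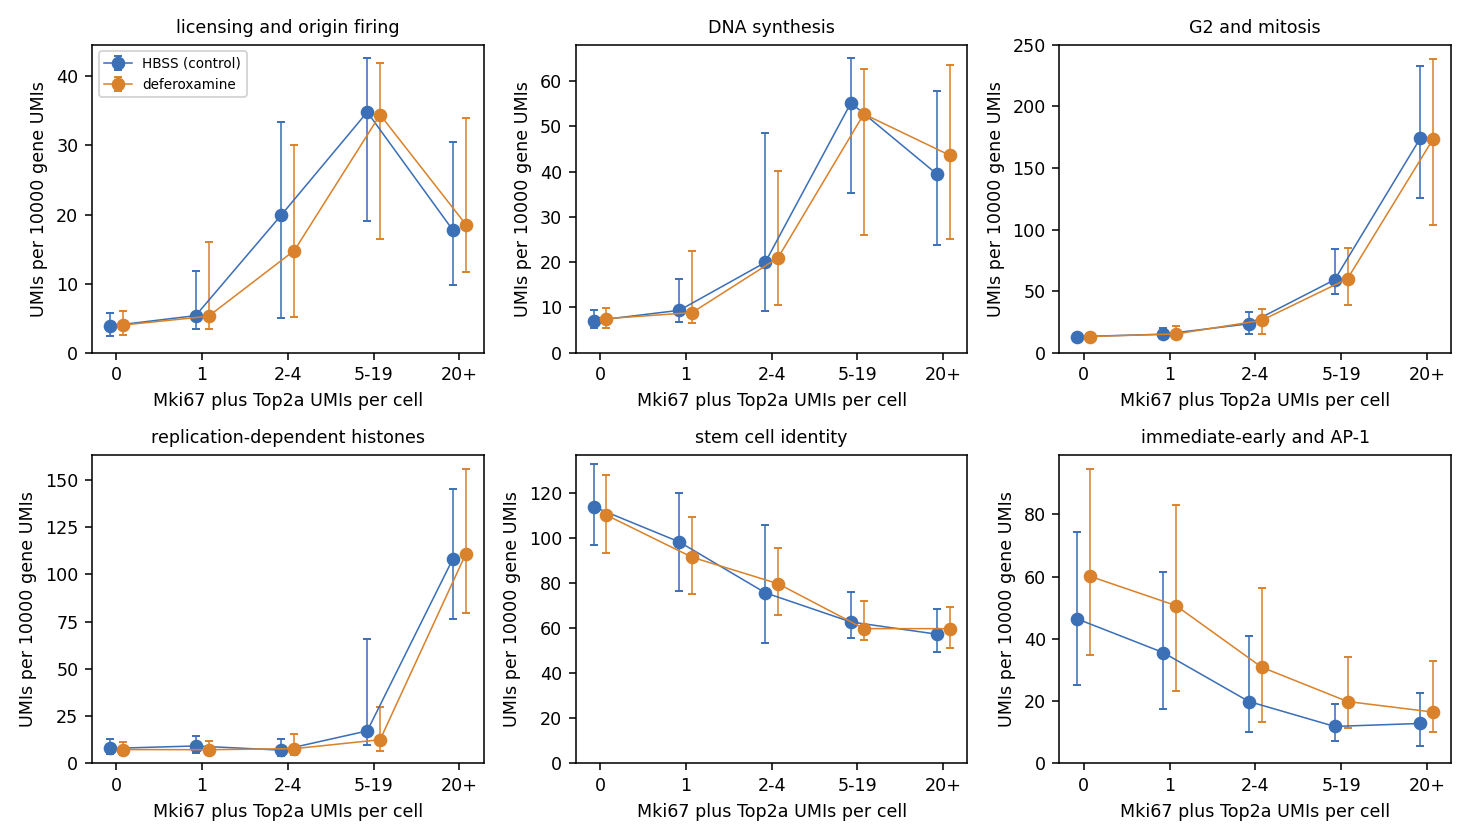
Median UMIs per 10000 gene UMIs of 6 gene lists in HSC-gate cells grouped by their Mki67 plus Top2a UMIs, with bars from the lower to the upper quartile of cells. Licensing and DNA synthesis genes are highest at 5 to 19 UMIs, whereas mitotic and histone genes are highest from 20 UMIs, and stem cell and immediate-early genes are lowest in the cells with more UMIs. Mki67 and Top2a are left out of the lists.

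Gate cells were next grouped by their amounts of the 2 selecting genes. The groups are cut on the values that chose the cells, so their differences are a description. Licensing genes had a median of 3.88 UMIs per 10000 in control 0-UMI cells, 5.37 in cells with 1 UMI, 20 at 2 to 4, 34.8 at 5 to 19 and 17.7 from 20 UMIs. In the chelator pool the same steps were 4.01, 5.29, 14.8, 34.4 and 18.6. Mitotic genes stayed low until late, with 13.1, 15, 23.5, 59.2 and 174 in the control and 13.2, 15.3, 26.3, 60.0 and 174 in the chelator pool. In both pools the licensing list was thus highest at 5 to 19 UMIs and the mitotic list from 20 UMIs.

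The histone list was at 7.87 in control 0-UMI cells, 6.97 at 2 to 4 and 17.2 at 5 to 19 UMIs, but at 108 from 20 UMIs, and at 7.28, 7.75, 12.5 and 111 in the chelator pool. Ube2c UMIs were found in 3.92% of control and 10.0% of chelator cells with 2 to 4 UMIs, and in 92.2% and 91.7% of cells with 20 or more. E2f1, a driver of the G1-to-S step, was highest before that last group. It was at 10.4 and 12.4 CPM in 0-UMI cells, 89.7 and 69.9 at 2 to 4 UMIs, 104 and 114 at 5 to 19, and 28.6 and 40.8 from 20. Ccnd1 lay near the level of 0-UMI cells at 2 to 4 UMIs (72.4 and 81.1 CPM) and was at 15.2 and 26.6 from 20 UMIs.

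The stem cell list was lower in cells with more UMIs, down to 5 to 19 in the chelator pool. It had medians of 114, 98.4, 75.8, 62.8 and 57.4 UMIs per 10000 over the same 5 groups in the control, and 110, 91.6, 79.9, 59.9 and 59.9 in the chelator pool. Procr was at 246, 153, 91.7, 39.0 and 16.0 CPM in the control and at 212, 125, 72.1, 29.8 and 18.0 in the chelator pool. Other members did not follow in each step. Mecom was at 360, 241 and 285 CPM in control cells with 0, 5 to 19 and from 20 UMIs, and at 349, 198 and 304 in the chelator pool. Hlf was at 466, 191 and 167 CPM and at 415, 165 and 199. Meis1, a homeobox gene of HSCs, stayed near its level, with 378 CPM in control 0-UMI cells and 334 from 20 UMIs, and 379 and 366 in the chelator pool. Pf4 was highest in the middle, at 1112 and 799 CPM in cells with 5 to 19 UMIs against 377 and 401 from 20. Depth moved with these groups as well: median gene UMIs were 18421 and 17767 at 2 to 4, and 25958 and 26201.5 from 20 UMIs.

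The surface proteins gave a readout that did not enter the choice of UMIs. Tag levels are centred log ratios (CLR: the natural log of a tag's UMIs plus 1 minus the cell's mean over all tags), and differences are cycling minus 0-UMI cells. CD135, CD48 and CD150 set the gate, so only their spread within it is described. Of 117 surface tags 16 were higher and 11 lower in both pools by more than any isotype control, which reached 0.161 in size.

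**Figure D4:**
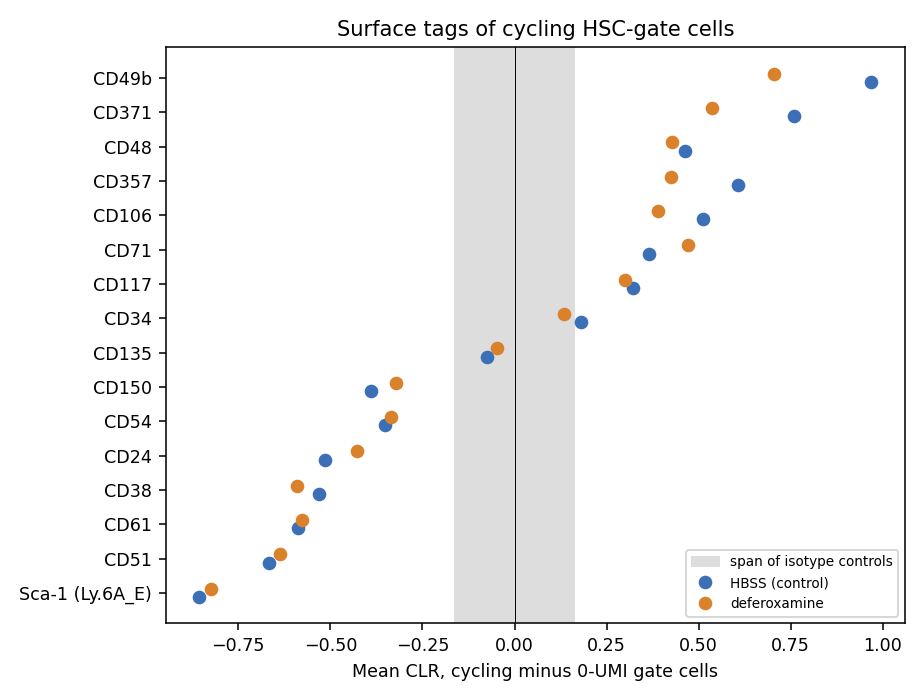
Difference in mean CLR between cycling and 0-UMI HSC-gate cells for the tags with the largest differences and the sort and gate markers, in both pools; the grey band spans the isotype controls. Sca-1 (Ly.6A_E) is lowest at -0.86 and -0.83, and CD49b highest at 0.97 and 0.71.

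Sca-1, on which LSK cells are sorted, was the lowest: its mean CLR was 0.52 in control 0-UMI cells and -0.34 in control cycling cells, and 0.53 and -0.30 in the chelator pool. Its gene Ly6a was lower as well, at log2 -2.31 and -1.81. CD38, an ectoenzyme of HSCs, differed by -0.53 and -0.59 (Cd38 RNA by -2.21 and -1.62). The integrin chains CD51 and CD61 differed by -0.67 and -0.64 and by -0.59 and -0.58, CD24 by -0.51 and -0.43, and the adhesion molecule CD54 by -0.35 and -0.34. CD150 differed by -0.39 and -0.32 within the gate.

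CD49b, integrin alpha 2, which marks HSCs with less lasting activity, was the highest, at 0.97 and 0.71. Its gene Itga2 had only 28 UMIs in the control and 57 in the chelator cells compared, too few to be counted. CD371 differed by 0.76 and 0.54, CD357 by 0.61 and 0.42, and CD106 by 0.51 and 0.39. CD71, the transferrin receptor, differed by 0.37 and 0.47, as its mean went from -0.91 to -0.54 in the control and from -1.18 to -0.71 in the chelator pool. CD48 differed by 0.46 and 0.43 within the gate, and c-Kit (CD117) by 0.32 and 0.30, although Kit RNA lay at -0.38 in both. CD34 differed by 0.18 and 0.13. Of 30 tags whose gene had enough UMIs, 21 had the sign of the RNA difference in both pools. CD62P was an exception: its tag differed by 0.18 and 0.20 while its gene Selp lay at -1.09 and -0.83.

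The 2 pools were then compared within cycling cells. Of 9060 genes with at least 100 UMIs, 67 were at least 1.5-fold higher in the chelator pool (0.74%) and 38 lower (0.419%). With each cell weighted equally the split was 77 higher to 79 lower. Without cells over 2 times their pool's median depth or with both sexes' transcripts it was 53 to 65. This kept 133 of 190 control and 158 of 209 chelator cycling cells. That second count had 7516 genes to test, and 17 of the 67 and 12 of the 38 genes were called in it. By their transcripts, control cycling cells were 36.3% Xist-bearing and 52.1% Y-bearing, and chelator cycling cells 24.9% and 66.0%.

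**Figure D5:**
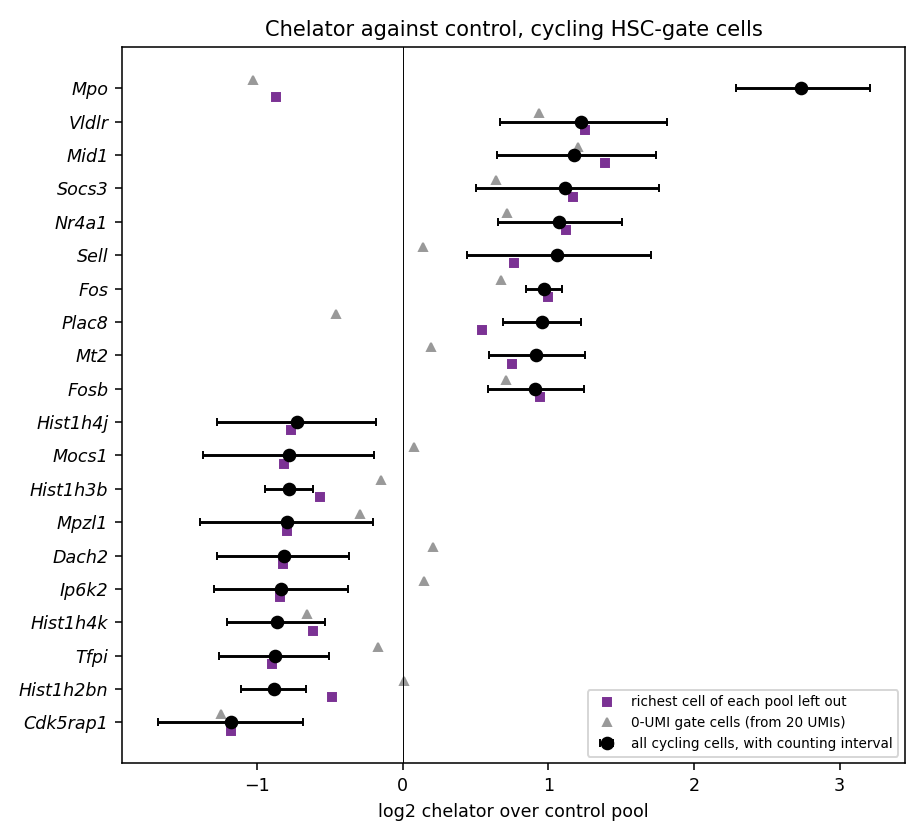
log2 ratio of the chelator over the control pool in cycling HSC-gate cells for the 10 highest and 10 lowest genes (black, with counting intervals), without the richest cell of each pool (squares) and in 0-UMI cells (triangles, genes with at least 20 UMIs there). Mpo turns from 2.73 to -0.87 without its richest cells, whereas Fos stays at 1.0.

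Some immediate-early genes were higher in the chelator pool. Of 16 counted 4 (Fos, Fosb, Nr4a1 and Egr1) passed 1.5-fold upwards and none downwards, with a median log2 ratio of 0.51, and the same genes had a median of 0.30 in 0-UMI cells. Fos had 761 UMIs in control and 1655 in chelator cycling cells (log2 0.97, 0.85 to 1.10), and its ratio was 0.68 in 0-UMI cells. By sex it was 0.78 (Xist-bearing cells) and 1.35 (Y-bearing cells). Nr4a1, a nuclear receptor, was at 1.07 (0.66 to 1.51), Fosb at 0.91 (0.59 to 1.24) and Jund at 0.55 (0.44 to 0.66). Jun lay at 0.07, with -0.60 for Xist-bearing and 0.60 for Y-bearing cells. Socs3, a feedback inhibitor of cytokine signalling, was at 1.12 (0.50 to 1.76), on 32 and 77 UMIs.

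Of 4 counted granulocyte-monocyte markers 2 were higher in the chelator pool, and of 9 erythroid markers 2. Mpo, myeloperoxidase, had 47 UMIs in control and 347 in chelator cycling cells (log2 2.73), but 1 chelator cell held 327 of them, and the ratio was -0.87 without the richest cell of each pool. Plac8 was at 0.95 (0.69 to 1.22) and at 0.55 without those cells. Car1, an erythroid carbonic anhydrase, had 100 and 474 UMIs in 2 and 4 cells. Mt2, a metallothionein, was at 0.92 (0.59 to 1.25), with 2.65 for Xist-bearing and -0.24 for Y-bearing cells, and Mt1 at 0.74 (0.60 to 0.89), with 1.57 and 0.19. Whether the metallothionein ratios differ between the sexes was not tested.

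Other genes were higher on fewer UMIs. Vldlr, a lipoprotein receptor, was at 1.22 (0.66 to 1.81) and at 0.93 in 0-UMI cells, and Mid1, a microtubule-associated ubiquitin ligase, at 1.18 (0.64 to 1.74) and 1.20. Of 12 counted interferon genes 3 were higher: Usp18, which removes the ubiquitin-like ISG15, at 0.77 (0.17 to 1.38), Rtp4 at 0.60 and Isg15 at 0.59. Usp18 lay at 0.04 in 0-UMI cells. Ccnd1 was at 0.55 (0.28 to 0.82) and Cdkn1c at 0.40 (0.13 to 0.68).

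The lowest gene was Cdk5rap1, a mitochondrial tRNA-modifying enzyme on chromosome 2 (154222011 to 154373038), with 106 UMIs in control and 52 in chelator cells (log2 -1.18, -1.69 to -0.69). It lay at -1.25 in 0-UMI cells, at -1.94 in Y-bearing and at 0.20 in Xist-bearing cells. Tfpi, an inhibitor of coagulation, was at -0.88 (-1.26 to -0.51). Of 51 histone genes 6 were lower and 1 higher, with a median of -0.24 (-0.64 for Xist-bearing and -0.03 for Y-bearing cells). The 2 lowest rested in part on 1 control cell each. Hist1h2bn was at -0.89, with 176 of its 455 control UMIs in 1 cell, and at -0.49 without the richest cells. Hist1h4k was at -0.87, and at -0.62 without them.

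None of the 69 mitotic genes passed 1.5-fold between the pools, with a median of -0.18, and 67 of them lay below 0, against 4723 of all 9060 genes. Their median was -0.55 for Xist-bearing and -0.15 for Y-bearing cells. At least 20 UMIs of the selecting genes were held by 90 of 190 control and 84 of 209 chelator cycling cells; the part of this in those medians was not tested. Licensing genes had a median of 0.03 and DNA synthesis genes of -0.01, and none of either passed. Rrm2 lay at -0.01 (-0.19 to 0.17), Cdk6 at -0.02 (-0.12 to 0.09) and Procr at -0.10 (-0.41 to 0.21).

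Iron genes gave no calls between the pools. None of 14 counted passed 1.5-fold, with a median of 0.06. Fth1 was at 0.09 (0.05 to 0.14) and Tfrc at 0.20 (-0.37 to 0.77), on 48 and 61 UMIs. Slc40a1 was at 1.61 (0.12 to 3.41) on 5 and 17 UMIs, and lay at 1.27 (0.19 to 2.48) in 0-UMI cells. Of the tags, CD71 differed by -0.17 and CD34 by -0.29 between chelator and control cycling cells, and by -0.28 and -0.24 between the 0-UMI cells.

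Cycling cells were last set beside cycling cells of the 2 gates most like the HSC gate, chosen by the same UMI rule. The MPP1 gate differs in a low CD150 tag and the MPP2 gate in a high CD48 tag. Cycling cells made up 19.4% of the control and 26.4% of the chelator MPP1 gate, a difference of 7.02 points (1.98 to 12), and 74.2% and 72.5% of the MPP2 gate. Thinned to equal depth, the shares were 12.5% and 19.2% for MPP1 and 52.2% and 60.6% for MPP2, beside the 11.7% and 9.36% of HSC-gate cells.

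Against 257 cycling MPP1-gate cells, of 9770 genes 142 were at least 2-fold higher in both pools (1.45%) and 64 lower (0.655%). Against 143 cycling MPP2-gate cells, of 9494 genes 182 were higher (1.92%) and 54 lower (0.569%). The genes that rise with HSC ageing stood out by count, with 17 of 23 higher than in MPP1 and 15 of 23 higher than in MPP2, and medians of 1.83 and 1.93 and of 1.33 and 1.35. Vwf, the von Willebrand factor, was at 89.5 and 96.2 CPM in cycling HSC-gate cells, 2.98 and 3.20 in cycling MPP1 and 42.8 and 23.7 in cycling MPP2 cells. Clu, clusterin, was at 94.2 and 128 CPM, against 0.426 and 0.961 and against 17.6 and 28.5. Slamf1, the gene of CD150, belongs to this list and follows the gate.

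Stem cell identity genes were higher for 8 of 33 against MPP1 and 11 of 33 against MPP2, and none was lower. Mecom was 1.36 and 1.08 above MPP2 on the log2 scale but only 0.35 and 0.01 above MPP1, and Hlf was below MPP1 by -0.57 and -0.68. Cdkn1c was higher than in both, at 1.28 and 1.39 and at 2.44 and 1.76. Megakaryocyte markers were higher for 7 of 12 against MPP1 (Pf4 at 3.8 and 2.68) and for none against MPP2. Erythroid markers were lower for 4 of 12 against MPP1 and 3 of 9 against MPP2, lymphoid markers for 2 of 3 and 2 of 2, and granulocyte-monocyte markers for none of 4 and 4 of 7. Flt3, the CD135 receptor gene that belongs to the gating protein, was at -2.49 and -2.14 against MPP1. Car1 was lower than in both gates (-4.25 and -1.65, and -4.75 and -2.50).

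Genes of the cycle gave no calls: none of the 69 mitotic, 25 licensing or 30 DNA synthesis genes differed 2-fold from cycling MPP1 cells in both pools. Both groups were chosen on Mki67 and Top2a, so likeness in these genes is in part set by the choice. The mitotic list had a median log2 ratio of 0.36 in the control and -0.20 in the chelator pool. For licensing it was -0.32 and -0.09, and for DNA synthesis -0.07 and -0.04. Ube2c was at 0.41 and -0.29 against MPP1, and Mcm6 at -0.28 and 0.02. Median gene UMIs were 21024 and 20224.5 in cycling MPP1 and 22124 and 23612.5 in cycling MPP2 cells, against 22736.5 and 22739 in cycling HSC-gate cells.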

How the data were processed

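Gene and antibody-tag UMI counts were deposited by the authors as raw counts per cell barcode, 1 matrix per pool. Per the submitters' processing notes they used Cell Ranger 7.0.0, Seurat 4.3.0 and mm10, while the file headers name Cell Ranger 7.0.1. How barcodes were given to a hashtag is not given in the sources used here. Each matrix held 32285 genes and 126 surface features, of which 9 were isotype controls, plus 2 hashtags.

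A cell was kept from 500 detected genes and below 10% of UMIs from mitochondrial transcripts. The gate used CLR thresholds of -0.43 (CD135, below), 0.53 (CD48, below) and 1.56 (CD150, from). Counts were summed per pool and scaled to CPM. Genes needed 50 UMIs in each pool for cycling against 0-UMI cells, and 100 over both pools for chelator against control. No doublet caller was run: cells over 2 times the pool's median depth, or with both sexes' transcripts, were left out as an alternative. They are called likely doublets below, though a deep single cell would be left out as well. Intervals are exact (Clopper-Pearson, or binomial for ratios), at 95%, for counting error alone. With 1 pool per condition no test was possible, and calls are past a fold. Python 3.11.15, numpy 2.4.6, scipy 1.17.1 and pandas 2.3.3 were used, and the code was tested on simulated data.

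The genes named were the 12 highest, the 12 lowest and the 12 highest outside the cell-cycle lists (cycling against 0-UMI), the 10 highest and lowest (chelator against control), up to 4 members of each list (most UMIs, largest ratio) and 15 genes always named; a few others were chosen after their values were seen. The members and the gene lists were chosen with earlier results of these data known.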

Additional observations from a re-analysis of the deposited data

Results flagged for a closer look

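The 144 named ratios between the pools were searched where the gene had at least 100 UMIs over both pools. The other genes among the 9060 counted were not searched, so a share over all genes was not measured. In 4 of the named genes the chelator and control pools differed in opposite directions in Xist-bearing and in Y-bearing cycling cells, with each counting interval leaving out 0. Jun, the AP-1 subunit, had a log2 ratio of chelator over control of -0.60 (Xist) and 0.60 (Y). Car2, a carbonic anhydrase, had 0.35 and -0.12. The tetraspanin gene Cd9 had -0.43 and 0.19. The chaperone gene Hspa8 had 0.16 and -0.16. The difference between the sexes was not tested, since each pool is 1 sample and the number of mice is unknown.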

How the results depend on the processing

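No paired analysis was possible because each condition is 1 pool. The difference in cycling share stayed within its counting interval under the alternatives run, though its sign turned without likely doublets (0.636 points) and in Y-bearing cells (0.845), and both tag counts stayed within 1.5 times. The 629 higher and 502 lower genes of cycling against 0-UMI cells (11394 tested) became 404 and 283 in cells with Xist (8775 tested), and 1251 and 1850 with no UMI minimum (20351). Between the pools 9060 genes were tested, but 2281 after thinning, 5127 with Xist and 18061 with no minimum, so these counts are not on one scale. The 67 genes higher in the chelator pool became 15 after thinning, 123 in cells with Xist and 3057 with no minimum. The 38 lower ones became 25 after thinning, 59 with gate edges 0.25 inward, 65 without likely doublets, 145 in cells with Xist, 79 with equal weight per cell and 2339 with no minimum. Against MPP1, with alternatives chosen after seeing the data, 142 higher genes became 78 without likely doublets, 50 for Xist-bearing and 88 for Y-bearing cells, and 64 lower became 24 and 37 in the sexes. Against MPP2, 182 higher became 63 with Xist, and 54 lower became 14 and 27. Mpo turned from 2.73 to -1.17 after thinning, -2.46 with the gate inward and -0.27 without likely doublets. It was at -0.81 with Xist, -0.71 with Y and -0.87 without the richest cells, of which 1 held 327 of its UMIs. Other signs turned for Car1 (-0.15), Mt2 (-0.24), Cd74 (-0.23) and Hist1h4k (0.040) in cells with Y, Cdk5rap1 (0.20) with Xist and Usp18 (-0.073) after thinning. Between the pools, 137 of the 144 named ratios stayed within their interval without the richest cells. Beside the sign turns above, 79 stayed and 61 moved out of it after thinning. In cells with Xist 73 stayed and 69 moved, and in cells with Y 107 and 32. Of 152 named ratios of cycling over 0-UMI cells, 94 stayed in or near their interval and 58 moved after thinning. These numbers were also 94 and 58 in cells with Xist, and 125 and 27 in cells with Y. List medians were called moved past 0.1 on the log2 scale. For cycling over 0-UMI cells 18 stayed and 15 moved after thinning, and 20 and 14 without likely doublets. Between the pools 20 list medians stayed and 10 moved after thinning, and 11 and 19 in cells with Xist. Apart from Mpo the cause of these moves and sign turns was not tested. Low counts limit single genes most.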
